A study of Homo sapiens with 2 samples.

Results

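The accessible regions around MYC on chromosome band 8q24 were taken as all peaks with a summit on chromosome 8 between 125.5 and 130.5 Mb (GRCh38), merged where peaks of the libraries overlapped. This gave 620 merged regions of 359137 in all, built from 386 peaks of the sh-ctrl library and 530 peaks of the sh-VNGD library. The members were chosen by position alone. They comprise the regions at MYC, those in PVT1, and the distal regions on both sides, which are candidate enhancers by accessibility only.

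MYC encodes a transcription factor that drives cell growth and proliferation and is among the genes most often activated in cancer. It lies in a gene desert, a long stretch with few protein-coding genes, and its transcription in different tissues is known to depend on enhancers spread over that desert. PVT1, the neighbouring long non-coding RNA gene, starts a short way above MYC. The PVT1 promoter is known to compete with that of MYC for enhancers inside PVT1, and the band is often gained or amplified in tumours.

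The data are ATAC-seq, which reads out open chromatin as the places where a transposase can cut and tag the DNA, from cells labelled U2OS, an established human osteosarcoma line. In 1 library the cells had received a control hairpin (sh-ctrl), and in the other a hairpin targeting Vanguard (sh-VNGD), a long non-coding RNA that the series title links to low glucose. Both cultures were grown in DMEM with serum, and neither label gives a time after infection, a hairpin sequence or a clone. Each group had 1 library, so no difference below has a replicate check, no p-value is given, and all intervals cover counting error only. ATAC-seq does not measure RNA, so neither the knockdown nor the level of MYC or PVT1 RNA can be read from these values.

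After removal of repeated positions, 22931980 tags were kept for sh-ctrl and 31326715 for sh-VNGD, of 51628228 and 48164322 tags read. Repeats made up 56% and 35% of tags. The whole lists held 213285 and 302466 peaks on the assembled chromosomes. The defining markers went against the label in part. All 5 epithelial markers, which include CDH1 and EPCAM, had a peak at a gene end in both libraries, with median summits of 139 and 124 tags. Of 8 mesenchymal and osteoblast markers, 4 had one in sh-ctrl and 5 had one in sh-VNGD, with medians of 50 and 41 tags, while RUNX2, VIM and SPARC had peaks inside the gene only, with highest summits of 131 and 96, 94 and 91, and 25 and 25 tags. Of 5 haematopoietic markers, 4 and 3 had a peak at a gene end, with medians of 62 and 82 tags. The cells are therefore called by their label, and the part of cell identity in the results below was not tested.

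The 8q24 window was rich in strong peaks for a region with so few protein-coding genes. There were 77.2 sh-ctrl peaks and 106 sh-VNGD peaks per Mb, covering 140 and 175 kb of the 5 Mb. Only 6 protein-coding genes have an end in the window, namely LRATD2, POU5F1B, MYC, GSDMC, CYRIB and ASAP1. Of 607 tiles of 5 Mb, the 584 with peaks in both libraries were used, and 43 of these held as few or fewer protein-coding genes. Another 21 tiles with as few genes had no peak and are left out of the medians. None of these 43 had more peaks than the 8q24 window in either library, and their medians were 183 sh-ctrl and 295 sh-VNGD peaks. Their quartiles were 155.5 and 216.5 in sh-ctrl and 222.5 and 331.5 in sh-VNGD. Tiles with very few peaks were kept in the 43, such as chromosome 1 from 125000001 to 130000000, with 4 and 19 peaks. Strong peaks, with a summit pileup of 50 or more tags, numbered 92 in each library at 8q24 against medians of 11 and 12 in the gene-poor tiles, and again none of the 43 had more. Among the 584 tiles the position was ordinary for the number of peaks, since 234 tiles had more in sh-ctrl and 257 in sh-VNGD. It was less so for strong peaks, where 69 tiles had more in each library. The 5 Mb window centred on SOX9, another transcription factor gene in a desert, held 379 and 584 peaks, of which 33 and 31 were strong.

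**Figure D1:**
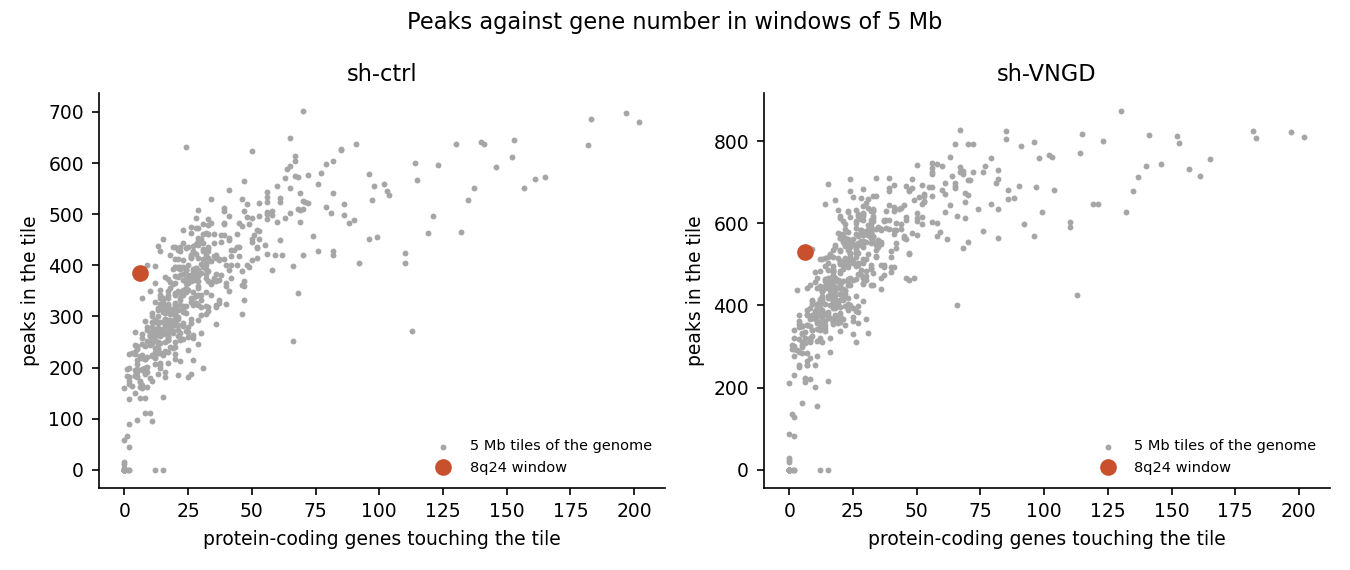
Number of peaks per library against the number of protein-coding genes in 5 Mb tiles of the genome, with the 8q24 window marked. The 8q24 window has 386 sh-ctrl and 530 sh-VNGD peaks, and none of the 43 tiles with as few or fewer protein-coding genes has more.

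Accessibility was concentrated around MYC and inside PVT1. PVT1 with 1000 bp on each side took 6.17% of the window's length and held 23.9% of the strong sh-ctrl peaks and 22.8% of the strong sh-VNGD peaks. Its density was 143 sh-ctrl and 139 sh-VNGD peaks per Mb, against 81.9 and 119 in the 2.23 Mb below MYC and 62.6 and 87.2 in the 2.40 Mb above PVT1. In bins of 500 kb, the bin from 127.5 to 128.0 Mb, which contains MYC and most of PVT1, held 65 and 72 peaks, with 26 and 25 strong ones. The genome's bins with a peak had medians of 34 and 50 peaks. The poorest bins lay between 128.5 and 129.5 Mb, with 21 sh-ctrl peaks in each and 32 and 31 sh-VNGD peaks.

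**Figure D2:**
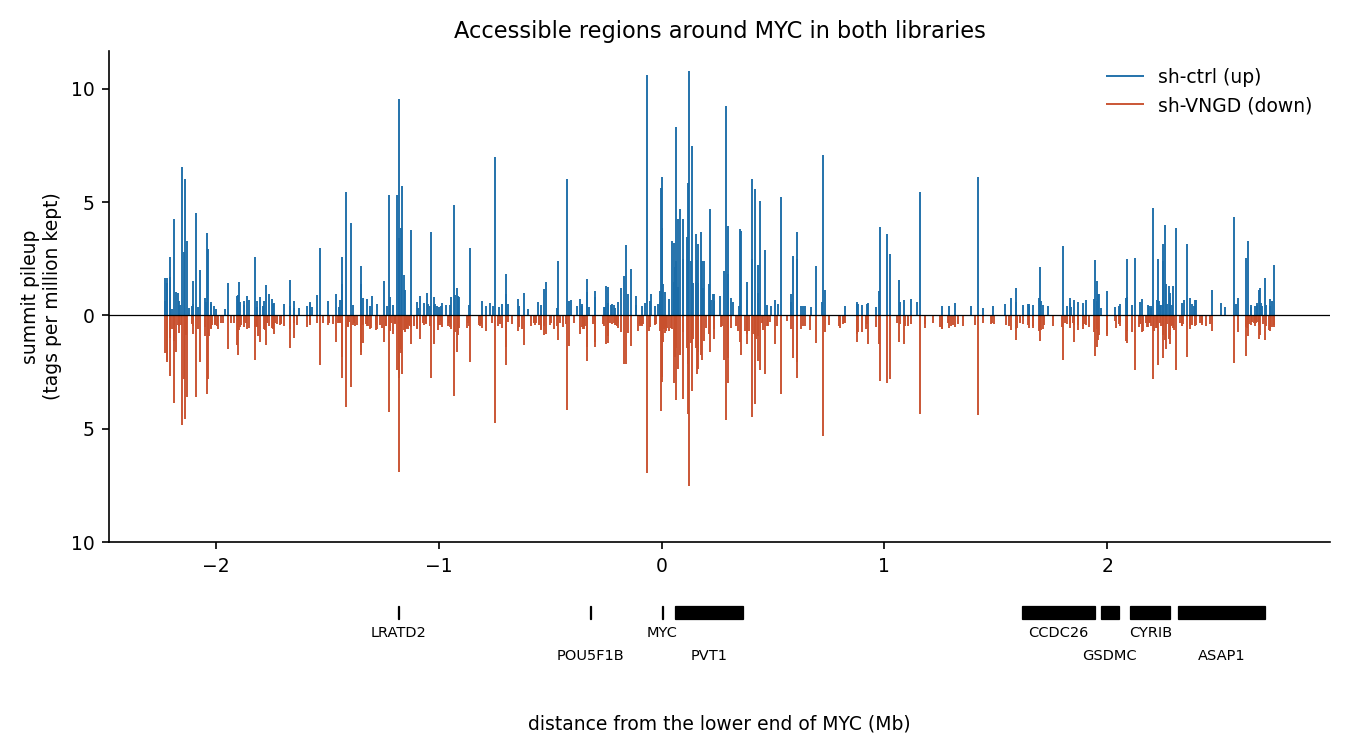
Summit pileup of every peak in the window, scaled to tags kept per library, against distance from the lower end of MYC in Mb, with the genes below. The densest strong peaks lie at MYC and within PVT1, where the highest region of the window reached 247 sh-ctrl tags and 236 sh-VNGD tags.

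The number of peaks was higher in sh-VNGD by a factor of 1.37 in the window, equal to the ratio of kept tags to 3 digits. The factor was not uniform. It was 1.45 below MYC, 1.25 at MYC, 1.6 in the gap, 0.98 in PVT1 and 1.39 above PVT1. In the SOX9 window it was 1.54, and the whole lists held 213285 and 302466 peaks. The part of depth in the excess was not tested. Within the 8q24 window the excess lay among peaks that were not strong. Below 20 tags there were 206 sh-ctrl and 297 sh-VNGD peaks. At 20 tags or more, strong peaks included, there were 180 and 233. The limit for strong peaks was on unscaled tags, so their counts were not compared at equal depth. The count of strong peaks was the same in both libraries, and 97.8% of the strong sh-ctrl peaks (Wilson 95% interval 92.4 to 99.4, 90 of 92) and 100% of the strong sh-VNGD peaks (96.0 to 100, 92 of 92) overlapped a peak of the other library by at least 1 bp. Below 20 tags these shares were 58.7% and 30.3%, against 61.0% and 33.9% over all assembled chromosomes. For all peaks the share was 74.1% (69.5 to 78.2) for sh-ctrl and 54.9% (50.6 to 59.1) for sh-VNGD, against 72.2% and 51.1% genome-wide.

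Of the 620 merged regions, 281 (45.3%) held a peak of both libraries and are called shared. A peak in sh-ctrl only was found in 100 regions (16.1%), beside 16.5% of all merged regions of the genome. A peak in sh-VNGD only was found in 239 regions (38.5%), beside 41.2% of all merged regions. Both shares were near the background. These regions were weak, with median summits of 12 tags in the sh-ctrl group and 14 in the sh-VNGD group. Among the shared regions, 9 (3.20%) had more sh-VNGD than sh-ctrl peaks, beside a background of 1.54%, and 4 (1.42%) had more sh-ctrl peaks, beside 1.18%.

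For each shared region the highest summit pileup of sh-VNGD was divided by that of sh-ctrl after scaling each to its kept tags. The median of this log2 ratio was -0.26 over the 152097 shared regions of the genome and -0.27 over the 281 of the window. Values given below as relative ratios have the genome median subtracted, so that 0 is the typical region and a negative value is lower in sh-VNGD. The window as a whole was typical, with a median relative ratio of -0.01 and 141 of 281 regions below 0. The SOX9 window had a median of 0.00.

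The 1.5-fold differences were unevenly placed along the window. Among the 180 shared regions whose mean pileup was at least 20 tags, 35 (19.4%) were at least 1.5-fold lower in sh-VNGD, beside 14.2% over the genome, and 24 (13.3%) were at least 1.5-fold higher, beside 9.74%. Of the 35 lower regions, 14 lay in PVT1, 10 above PVT1, 9 below MYC, 1 in MYC and 1 in the gap between the genes. Outside PVT1, 21 of 149 regions (14.1%) were lower, a share near the background. Of the 24 higher regions, 18 lay below MYC and 6 above PVT1. At a mean pileup of 50 or more, 20 of 88 regions were at least 1.5-fold lower, beside 13% over the genome, and 0 were higher, beside 1.18%. The higher regions were thus all of moderate or low pileup.

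**Figure D3:**
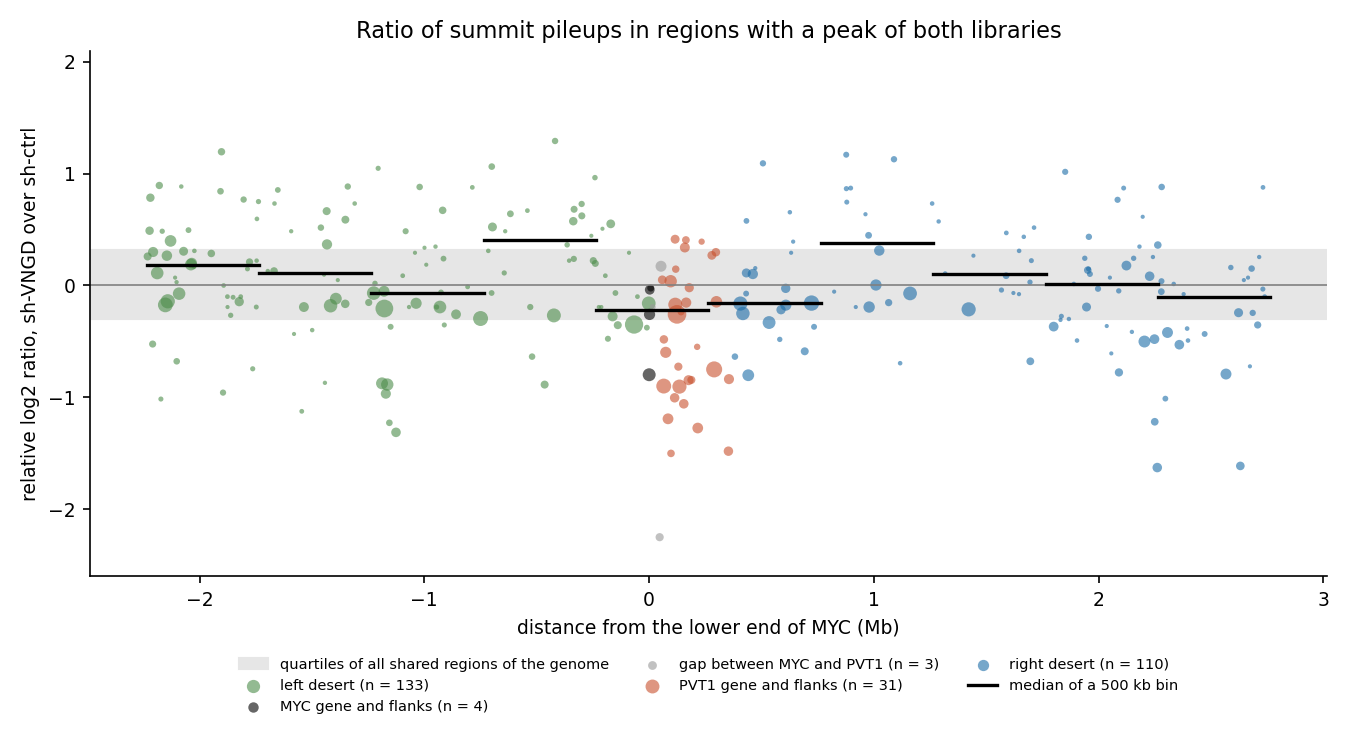
Relative log2 ratio of summit pileup (sh-VNGD over sh-ctrl) of the 281 shared regions against distance from the lower end of MYC in Mb. Point area shows the mean unscaled pileup, within a smallest and a largest size. Black lines are the medians of 500 kb bins, and the grey band the quartiles of all shared regions of the genome. The 31 regions in PVT1 have a median of -0.48 and include 14 at least 1.5-fold lower, and the 133 regions in the desert below MYC have a median of 0.11.

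The region over the MYC start was lower in sh-VNGD. MYC runs toward higher coordinates from 127735434 to 127742951, and the region at its start spanned chromosome 8, 127735132 to 127736527. Its highest summit had 140 sh-ctrl tags and 92 sh-VNGD tags, although the sh-VNGD library had kept more tags. The scaled log2 ratio was -1.06 (exact Clopper-Pearson 95% interval -1.45 to -0.67) and the relative ratio -0.80 (-1.19 to -0.41). The sh-ctrl library had 1 peak there and the sh-VNGD library 2 peaks. The local background at these summits, read back from the authors' fold enrichment, was 25.7 sh-ctrl tags and 20.3 sh-VNGD tags, a scaled log2 ratio of -0.80. Against that background the log2 ratio of the authors' fold enrichment was -0.27, with -0.09 as the median of all shared regions.

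The other regions at MYC differed less between libraries. The region 127734008 to 127734368, at the upper end of the long non-coding RNA gene CASC11 and 1.25 kb below the MYC start, had 129 sh-ctrl tags and 132 sh-VNGD tags, a relative ratio of -0.16 (-0.52 to 0.20). Inside the gene, the region 127737641 to 127738015 had 89 and 85 tags, a relative ratio of -0.26 (-0.71 to 0.19). A second inner region, 127738548 to 127738844, had 62 and 69 tags and a relative ratio of -0.04. At the upper end of MYC, the region 127743039 to 127743301 had 32 and 36 tags and a relative ratio of -0.02. The intervals of these 4 regions included 0, and the interval of the start region did not. Each of the 4 intervals overlapped that of the start region, however, and the differences between regions were not tested. For the 4 regions of MYC and its flanks together, the median was -0.15 by pileup and 0.23 by fold enrichment relative to all regions, so the direction for the gene as a whole depended on the measure.

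The gap between MYC and PVT1 held the lowest ratio of the window among regions of mean pileup 30 or more. This region, 127782284 to 127783048, lay 47.4 kb above the MYC start and outside any listed gene. Its summit had 75 sh-ctrl tags and 18 sh-VNGD tags, a relative ratio of -2.25 (-3.08 to -1.49). The log2 ratio of fold enrichment was -1.73, so the difference was also present against the local background. A neighbour at 127788670 to 127789191 had 73 and 94 tags and a relative ratio of 0.17 (-0.28 to 0.63). A further region at 127792968 to 127793170 had a sh-ctrl peak of 34 tags and no sh-VNGD peak. The gap held only 3 shared regions, and of these only the first was past 1.5-fold.

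At the PVT1 start the ratio was close to that of the typical region. PVT1 runs from 127794524 to 128101256, also toward higher coordinates, and the region at its start, 127794202 to 127795950, ends just below the microRNA gene MIR1204. It had 49 sh-ctrl tags and 58 sh-VNGD tags, with 2 peaks in each library. The scaled log2 ratio was -0.21 and the relative ratio 0.05 (-0.52 to 0.63). Fold enrichment relative to all regions gave -0.02, against -0.18 at the MYC start. The counting intervals of the MYC and PVT1 starts overlapped, and the difference between them was not tested. The PVT1 summits were lower than those at the MYC start in both libraries. No region lay at the upper end of PVT1.

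Inside PVT1 many shared regions were lower in sh-VNGD by 1.5-fold or more. The 31 shared regions of PVT1 and its flanks all had a mean pileup of 20 or more, and their summits ranged from 22 to 247 tags in sh-ctrl, with a median of 72, and from 23 to 236 in sh-VNGD, with a median of 55. The median scaled log2 ratio was -0.74 and the median relative ratio -0.48, with quartiles of -0.87 and 0.04. At least 1.5-fold lower were 14 of 31 (45.2%) and at least 1.5-fold higher were 0, beside the same backgrounds of 14.2% and 9.74%. Among the 23 with a mean pileup of 50 or more, 11 (47.8%) were lower, beside 13%. The count below 0 was near the background once strength was considered. It was 22 of 31 (71.0%), beside 58.7% of all regions at this minimum, and 17 of the 23 strong regions (73.9%), beside 76.8% of strong regions over the genome. The number of peaks in PVT1 was nearly equal, at 44 (sh-ctrl) and 43 (sh-VNGD). Of its 51 regions, 12 had a sh-ctrl peak only and 8 a sh-VNGD peak only, beside 16.5% and 41.2% of all merged regions. The order was the reverse of that in both deserts, where peaks were weaker. Median summits were 52 sh-ctrl and 45 sh-VNGD tags in PVT1, against 16 and 17 in each desert. The part of peak strength in this order was not tested.

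The lower PVT1 regions were spread along the gene. The region 127800224 to 127801279, 65.5 kb above the MYC start and the first strong one inside PVT1, had 191 sh-ctrl tags and 117 sh-VNGD tags, a relative ratio of -0.90 (-1.24 to -0.56). The region 127870204 to 127871303 had 172 and 105 tags, with a relative ratio of -0.90. Farther along, 128024945 to 128025931 at 289.9 kb had 212 and 144 tags, a relative ratio of -0.75 (-1.07 to -0.44). The lowest ratios in the gene were at weaker regions. The region 127833018 to 127833454 had 57 and 23 tags (interval of the relative ratio -2.27 to -0.78) and the region 128088606 to 128089015 had 88 and 36 tags (-1.48). By contrast the highest region of the whole window, 127859428 to 127860491 at 124.6 kb, had nearly equal summits of 247 and 236 tags, and its relative ratio was -0.26 (-0.52 to 0.00). The next strong region above it was the one at 127870204, with a ratio whose interval lay below that of its neighbour (-1.27 to -0.55). By fold enrichment relative to all regions these values were smaller or reversed. The 3 strong regions at 127800224, 127870204 and 128024945 had -0.44, -0.23 and -0.14, and the highest region had 0.26. The weaker ones at 127833018 and 128088606 had -1.48 and -0.86.

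**Figure D4:**
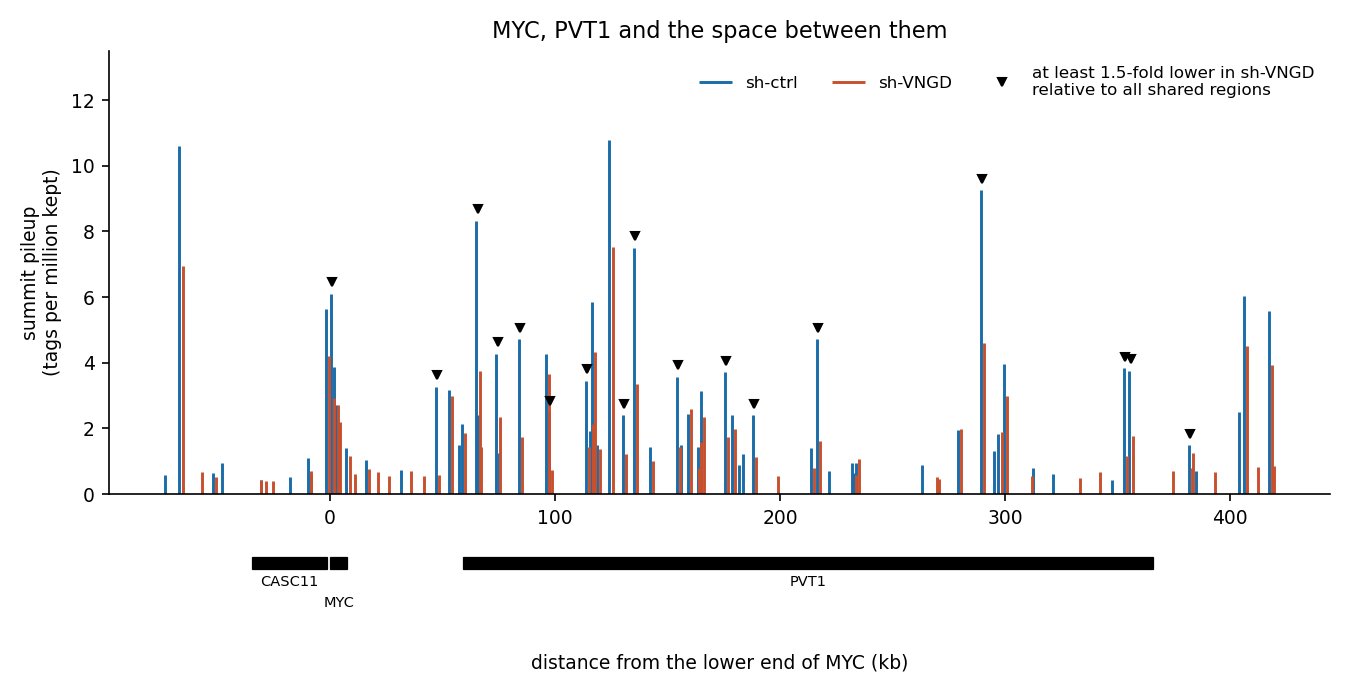
Summit pileup, scaled to kept tags, of every region around MYC and PVT1 in both libraries, against distance from the lower end of MYC in kb, with triangles at regions at least 1.5-fold lower in sh-VNGD. Lower regions occur at the MYC start, in the gap and along PVT1, while the PVT1 start carries none.

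Several measures moved with the PVT1 values. Strong regions had lower ratios over the genome, with a median relative ratio of -0.21 over all regions of mean pileup 50 or more, and 23 of the 31 PVT1 regions were that strong. Centred on regions of the same pileup class, an alternative chosen after seeing the data, the PVT1 median was -0.28. The scaled local background at PVT1 summits also had a median log2 ratio of -0.45, against 0.00 over all shared regions, and fold enrichment gave a median of -0.23 against -0.09, a relative value of -0.14. With peaks of −log10 q of 5 or more only, the median relative ratio was -0.22. The parts of pileup and of local background in the PVT1 difference were not tested. In bins of the same length as PVT1 with at least 31 shared regions of mean pileup 20 or more, likewise chosen after seeing the data, 3 of 112 bins had a lower median than PVT1, and the median of the bins was -0.20.

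Local background was raised across the middle of the window. At PVT1 summits its median was 8.29 sh-ctrl tags and 8.14 sh-VNGD tags, 5.05 and 3.77 times the medians of all peaks. At MYC it was 25.8 and 20.3 tags. Over the whole window it was 2.05 and 2.61 tags, 1.25 and 1.21 times the genome, and 2 of the 43 gene-poor tiles were higher in each library. DNA copy number and accessibility both raise this value and cannot be told apart here.

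The distal regions made up nearly all of the window. Of 620 regions, 606 lay over 2500 bp from the ends of PVT1 and of any protein-coding gene, and 269 of these were shared. The 130 shared distal regions below MYC had a median relative ratio of 0.13, and the 139 above it had a median of -0.07. The latter include 30 inside PVT1, with a median of -0.52. By annotation, the 118 shared distal regions in no gene had a median of 0.10, and the 31 inside protein-coding genes had a median of -0.08. The 120 in non-coding genes, which include the 30 inside PVT1, had a median of -0.06. The part of PVT1 in this contrast was not tested.

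Of the 10 highest distal regions by mean scaled pileup, 4 lay in PVT1. Of the 10, 3 were at least 1.5-fold lower in sh-VNGD, beside 13% of all shared regions of mean pileup 50 or more. These 3 were all among the 4 in PVT1. The other 7 had relative ratios from -0.35 to -0.14. The highest outside PVT1, at 127668037 to 127669446, overlaps the upper end of the long non-coding RNA gene LOC105375754, at -66.5 kb from MYC. It had 243 sh-ctrl tags and 218 sh-VNGD tags, a relative ratio of -0.35 (-0.62 to -0.08), while fold enrichment relative to all regions gave 0.33, the opposite direction. Above PVT1, the region 128458190 to 128459085 in LINC00824, at 723 kb, had 162 and 166 tags, and the region 128141790 to 128142567 had 138 and 141 tags. Their relative ratios were both -0.16, while fold enrichment relative to all regions gave -0.33 for the first and 0.41 for the latter. Below MYC, 126985700 to 126986108 had 160 and 149 tags (-0.30), and in LINC02964 the regions 125582837 to 125583686 and 125593895 to 125594524 had 150 and 152 tags and 138 and 143 tags (-0.17 and -0.14). These summits were nearly equal in raw tags in the libraries.

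Regions with a higher ratio in sh-VNGD lay mostly below MYC and were weaker. The 5 highest ratios among regions of mean pileup 30 or more were all below MYC. The highest, 125832987 to 125833393, had 21 sh-ctrl tags and 55 sh-VNGD tags, a relative ratio of 1.20 (0.447 to 1.996). It was followed by 127035544 to 127036109, at -699.6 kb from MYC, with 18 and 43 tags (1.06). The other 3 had relative ratios of 0.89, 0.84 and 0.79, with 20 to 33 tags in sh-ctrl and 41 to 65 in sh-VNGD. In the left desert as a whole, 18 of 81 regions of mean pileup 20 or more (22.2%) were at least 1.5-fold higher, beside 9.74%, and 9 (11.1%) were lower, beside 14.2%. The higher ones had 13 to 33 sh-ctrl tags and 29 to 65 sh-VNGD tags. The median relative ratio of the left desert was 0.11 by pileup and 0.03 by fold enrichment.

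The bin from 127.0 to 127.5 Mb had the highest median relative ratio of the 10 bins of 500 kb, at 0.40 over 24 shared regions. Of its 18 shared regions of mean pileup 20 or more, 7 were at least 1.5-fold higher and 2 lower, beside 9.74% and 14.2%. The bin from 128.5 to 129.0 Mb, above PVT1, was close to it with a median of 0.38 over 16 shared regions, and the bin from 126.5 to 127.0 Mb, below MYC, had -0.06. In the bin from 127.0 to 127.5 Mb the local background moved the same way, with a median log2 ratio of 0.32, and fold enrichment gave 0.10. This bin holds the long non-coding RNA genes CCAT1, CCAT2, CASC19, CASC21 and CASC8, a stretch known for colorectal and prostate cancer risk and for tumour enhancers. The CCAT1 lower end had 27 tags in both libraries. The regions at the CCAT2 ends had 23 and 31 tags and 24 and 44 tags. The bin with MYC and most of PVT1 had a median of -0.21 over 46 shared regions. Of its 40 shared regions of mean pileup 20 or more, 13 were at least 1.5-fold lower and 0 higher, and among the 25 of 50 or more, 9 were lower, beside 13% over the genome.

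**Figure D5:**
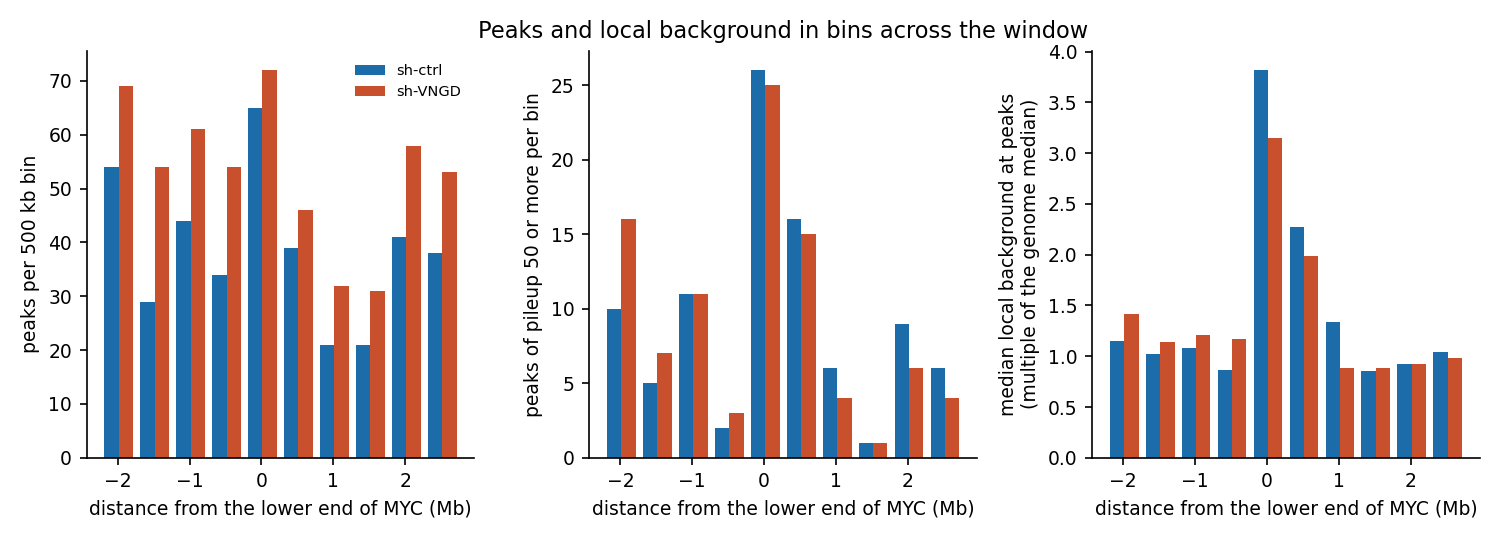
Peaks, strong peaks and median local background per library in the 10 bins of 500 kb along the window. Bins are placed by distance from the lower end of MYC in Mb, and local background is a multiple of the genome median. The bin with MYC and most of PVT1 has the most peaks (65 sh-ctrl and 72 sh-VNGD) and the highest local background, 3.82 and 3.15 times the genome median.

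Distal regions with gaps of at most 12.5 kb formed 70 clusters of at least 3 regions. The cluster with the highest summed pileup in sh-ctrl and by the mean of the libraries, 127848940 to 127933748, lay inside PVT1 and had 20 regions over 84.8 kb. Its summits summed to 1318 sh-ctrl tags and 1145 sh-VNGD tags, covering 8.59 and 7.21 kb, and the median relative ratio was -0.24 with 11 of 15 shared regions below 0. The next by the mean, which was the highest in sh-VNGD, was 125504550 to 125664947. It lay at the left edge of the window in TRIB1AL and LINC02964, with 29 regions, sums of 1051 and 1363 tags over 8.54 and 10.1 kb, and a median of 0.26 with 6 of 19 below 0. The cluster ranked after it, 127751752 to 127833454, spanned the gap and the first part of PVT1, with 15 regions, sums of 825 and 641 tags over 8.50 and 7.10 kb, and a median of -0.60 with 7 of 9 below 0. These counts cover shared regions of any pileup. Over the genome, the share below 0 was 40.8% at a mean pileup under 20, 47.8% from 20 to 50 and 76.8% at 50 or more. The medians were below 0 in the clusters inside PVT1 and around its start, and above 0 in the far left cluster. For the cluster inside PVT1 the median of -0.24 was near the -0.21 of all regions of mean pileup 50 or more.

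A cluster above LRATD2, 126563825 to 126622078, was singled out after its values were seen. All 5 of its shared regions were below 0, with a median of -0.97 and a range of -1.31 to -0.37. Its other 9 regions, of 14, had a sh-VNGD peak only, beside 41.2% of all merged regions of the genome. Its strongest region, 126570432 to 126572189, had 131 sh-ctrl tags and 81 sh-VNGD tags. The pair of highest summits found in sh-VNGD only in the window, with 46 and 44 tags, lay in it at 126566985 to 126567189 and 126565212 to 126565435. The cluster thus held lower sh-VNGD summits at its shared regions, beside regions with a peak in sh-VNGD only, the library with more kept tags.

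The other regions found in 1 library only were scattered. In sh-VNGD only, 128117983 to 128118425, above PVT1, had 39 tags. In sh-ctrl only, 128139837 to 128140258 had 57 tags and 130483113 to 130483702 had 51. Of the regions found in sh-ctrl only, 15 had 20 or more tags, or 15.0% against 10.6% over the genome. For sh-VNGD these were 32, or 13.4% against 11.5%.

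At the ends of the other protein-coding genes, accessibility ranged from strong to undetected. LRATD2 had 219 sh-ctrl tags and 217 sh-VNGD tags at its upper end, 126557490 to 126558830, a relative ratio of -0.21 (-0.48 to 0.07). ASAP1, which encodes a GTPase-activating protein for ARF proteins, had 38 and 34 tags at its upper end (-0.35). CYRIB, which encodes a RAC1-binding regulator of the actin cytoskeleton, had 19 and 40 tags at its upper end, a relative ratio of 0.88 (0.06 to 1.75). GSDMC, a member of the gasdermin family of pore-forming proteins, had 10 and 12 tags. POU5F1B, a retrotransposed copy of POU5F1 whose reads may be shared with its parent gene, had no peak at either end. Inside CYRIB and ASAP1 lay regions among the 5 lowest ratios of the window. The region 129996591 to 129997135 in CYRIB had 92 and 34 tags (-1.63), and 130366320 to 130366909 in ASAP1 had 75 and 28 tags (-1.61). In CYRIB the upper end and this inner region thus differed in opposite directions.

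Over all gene classes, 66 genes had an end in the window, and 17 of them had a peak at an end in both libraries. Another 4 had one in the sh-ctrl library alone, 6 in the sh-VNGD library alone and 39 had none. Among protein-coding genes 5 of 6 had such a peak in both, and among long non-coding RNA genes 10 of 35. The matching shares over all genes of the genome were not computed, so these counts cannot be called high or low. Genes that share a region, such as PVT1 and MIR1204, were counted separately.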

How the data were processed

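Peaks were called on each of the 2 libraries separately, without a control library, by MACS 2.1.0.20150731, per the file headers. Bowtie2 2.2.5, MACS2 2.1.2, deepTools, hg38 and GRCh38.p13 are named in the submitters' processing notes. Per the file headers, each tag was moved 100 bp and lengthened to 200 bp, the limit was 1 tag per position, the local window was 10000 bp and peaks had a q under 0.05. With 1 tag per position and strand, at most 400 tags can cover a summit, which bounds the highest pileups. The deposited pileup is a signal, the unscaled number of tags at a summit. The deposited −log10 q and fold enrichment of each peak are those of the authors. The alignment filter was not given in the sources used here.

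Overlapping peaks of both libraries were merged. Ratios used the highest summit per library divided by its kept tags, with exact Clopper-Pearson 95% intervals, and shares used Wilson intervals. The interval code was tested on simulated data. Local background was computed as (pileup + 1) / fold enrichment - 1. It uses tags within the local window, those of neighbouring peaks included. Gene bounds came from RefSeq (GRCh38.p14) without strand or exons, so an end is a peak within 1000 bp of an outer bound. The lower ends of MYC and PVT1 were taken as their starts, from general knowledge. The background shares, over all assembled chromosomes, count regions past 1.5-fold relative to the median of all shared regions.

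Regions named were those at MYC, PVT1 and other protein-coding gene ends, the 10 highest distal regions, the 5 lowest and 5 highest ratios at a mean pileup of 30 or more, per library the 3 highest regions that the other lacked, and the 3 highest clusters. Regions outside this rule (next to MYC, in the gap, at CCAT1 and CCAT2, above LRATD2) were added after their values were seen. Members and lists were chosen with earlier results of these data known. Python 3.11.15, pandas 2.3.3, numpy 2.4.6, scipy 1.17.1 and matplotlib 3.10.9 were used.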

Additional observations from a re-analysis of the deposited data

How the results depend on the processing

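No paired analysis was possible because each group had 1 library, and no replicate could be left out. Peaks with a pileup of 20 or more numbered 180 in sh-ctrl and 233 in sh-VNGD. The overlap of sh-ctrl peaks was 80.7% at a −log10 q of 5 or more, 87.8% at a pileup of 20 or more and 66.1% with equal numbers of peaks, and that of sh-VNGD peaks 60.8%, 70.8% and 70.9%. The median log2 ratio of the window was -0.41 at a pileup of 20 or more and -0.088 by fold enrichment. It changed sign to 0.18 without scaling and to 0.28 when scaled to all tags read, so the sign of unscaled or scaled ratios rests on the choice of depth. Relative to all shared regions it stayed between -0.04 and -0.0012 under every alternative run. Regions at least 1.5-fold lower numbered 21 by fold enrichment, 13 at 2-fold and 20 at a mean pileup of 50 or more. Higher regions numbered 14, 7 and 0 under the same settings, and 41 with no minimum pileup. Regions in sh-ctrl only numbered 57 at a −log10 q of 5 or more and 22 at a pileup of 20 or more. Those in sh-VNGD only numbered 157, 68 and, with equal numbers of peaks, 106.

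The log2 ratio at the MYC start was -0.61 without scaling, -0.51 scaled to all tags read, -0.27 by fold enrichment and -0.42 within 2500 bp, where the stronger region at the CASC11 end replaces it. For MYC and its flanks the median was -0.0075 at a pileup of 20 or more and 0.23 by fold enrichment, which reversed its direction. Scaling shifts all regions alike, so relative values do not depend on it. The region at -66.5 kb from MYC reversed to 0.33 by fold enrichment. The PVT1 median was negative in the 5 alternatives that could move it, from -0.48 to -0.14. Depth limits the weak regions most: at 10 and 12 tags, the GSDMC interval ran from -1.27 to 1.44.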
